A study of Mus musculus with 2 samples.

Results

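The genes of the proteasome were followed through mouse bone marrow cultures that received heme or its carrier. The members were all genes whose symbol begins with Psma, Psmb, Psmc or Psmd and a number, without Psmb8, Psmb9 and Psmb10 and without pseudogene symbols, which gave 37 of the 26124 genes in the matrices. They comprised 7 alpha ring and 7 beta ring genes of the core particle, 6 ATPase and 11 non-ATPase genes of the regulatory particle, and 3 assembly chaperones (Psmd5, Psmd9 and Psmd10). The other 3 were Psma8 and Psmb11, which encode core subunits known from testis and thymus, and Psmc3ip, which shares the symbol but encodes a recombination factor. Summed values below are those of the 31 constitutive subunits of the core and regulatory particles.

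The proteasome is the main protease of the cytosol and nucleus. Its core particle is a barrel in which the inner beta rings hold the proteolytic sites, and the regulatory particle binds ubiquitin-tagged proteins, unfolds them with a ring of ATPases and feeds them into the barrel. Antigen-presenting cells can exchange the catalytic subunits Psmb5, Psmb6 and Psmb7 for the inducible Psmb8, Psmb9 and Psmb10. Transcription of the constitutive genes is known to be raised by Nfe2l1 when proteasome activity is low, and Nfe2l2 (NRF2), which responds to oxidants and electrophiles, is known to bind antioxidant response elements near some of them.

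The cells were lineage-depleted bone marrow progenitors of C57BL/6 mice, 8 to 10 weeks old, cultured in GM-CSF at 20 ng/ml, a factor that drives granulocytes, macrophages and dendritic cells. On day 3 the cultures received 300 µM heme-albumin, or the albumin carrier in the control group. The single-cell library of each group pooled 5 cultures marked with antibody hashtags for days 0, 3, 4, 5 and 7, so that 10 cultures were compared. Cultures of days 0 and 3 had received neither agent, and their difference describes how the libraries differed before the addition. It includes differences between individual cultures, in their cell mixtures and in the cells kept. Without replicate cultures these parts cannot be told apart. Such cultures are mixtures of cell types, and the labels do not give the number of animals. The design text and the labels differ on the length of exposure of the day 5 culture, so culture days are used.

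The libraries kept 9684 control and 9941 heme cells, between 598 and 2715 per culture, with 6189203 to 34647365 summed unique molecular identifiers (UMIs) per culture. Levels are given in CPM, the UMIs of a gene divided by all UMIs of its culture and brought to a common total. Since UMIs count transcript ends, levels of different genes were compared without division by length. There was no replicate library, which leaves no basis for p-values. The 95% intervals hold the error of counting alone. Of the barcodes, 112 occurred in both libraries, 33 of them among the kept cells. Hmox1, the heme-degrading enzyme, was at 1.94, 37.3, 59.8, 63.4 and 86.3 CPM in the control library on days 0, 3, 4, 5 and 7, and at 133, 161, 1399, 2321 and 5201 CPM in the heme library. The labels of the exposed cultures thus match their Hmox1, but the heme library also held more Hmox1 RNA on days 0 and 3, before the addition, and whether RNA of other cultures in the pool contributes to this was not tested.

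Among the 31 subunits, the mean level over the cultures ranged from 59.0 CPM (Psmc2, an ATPase) to 425 CPM (Psma7, an alpha ring subunit). Psma8 was at 0.474 to 3.49 CPM, and Psmb11 was at 0 in 6 cultures and at most 0.0516 CPM in the others. Psmc3ip was highest on day 0 and lower on each later day, from 46.9 to 8.51 CPM among the controls and from 26.2 to 3.97 CPM with heme. After removal of genes under a mean of 10 CPM in a comparison, 35 members remained on days 0 and 3 and 34 on days 4, 5 and 7.

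As a regulatory context, promoter stretches from RefSeq (GRCm38.p6; 250 bases before to 50 after the start) were found for 30 of the 37 members. The antioxidant response element core TGACNNNGC, searched on both strands, lay in this window of 4 of the 25 constitutive subunit genes with a promoter (16.0%), against 14.0% of all 27025 genes in the promoter table. The 4 stretches are shown because they are the only constitutive subunit windows that hold these letters. Capitals mark the match, and each is written along the strand of its gene.

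Psmb5 (chr14:54618023-54618052, minus strand, match begins 47 bases before the start): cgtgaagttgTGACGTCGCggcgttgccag
Psmb6 (chr11:70525338-70525356, plus strand, 9 bases before the start): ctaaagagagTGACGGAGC
Psmc6 (chr14:45329587-45329616, plus strand, 227 bases before the start, match on the opposite strand): ccagccagtaGCTAAGTCAggcattgctca
Psmd12 (chr11:107479278-107479300, plus strand, 247 bases before the start, match on the opposite strand): tctGCTGTGTCAcatttgccccc

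The CCAAT box, also searched on both strands, was present in 10 of the 25 constitutive subunit genes (40.0%) and in 41.1% of all genes. It lay in 6 of 11 core particle genes (54.5%) and 4 of 14 regulatory particle genes (28.6%). A match is a description of the letters in this window, not a site of binding.

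The first question was how proteasome genes behaved in each library over time. In the control library the 31 subunits summed to 6856, 5716, 5050, 5197 and 4967 CPM on days 0, 3, 4, 5 and 7, so that they were highest in fresh progenitors and lowest on day 7. In the heme library they summed to 4883, 4367, 3799, 4236 and 5291 CPM, lowest on day 4 and highest on day 7. From day 3 to day 7 the courses went in opposite directions. Relative to the median of all genes, the log2 ratio of day 7 to day 3 was -0.15 (interval -0.16 to -0.14) for the control sum and 0.28 (0.27 to 0.29) for the heme sum.

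**Figure D1:**
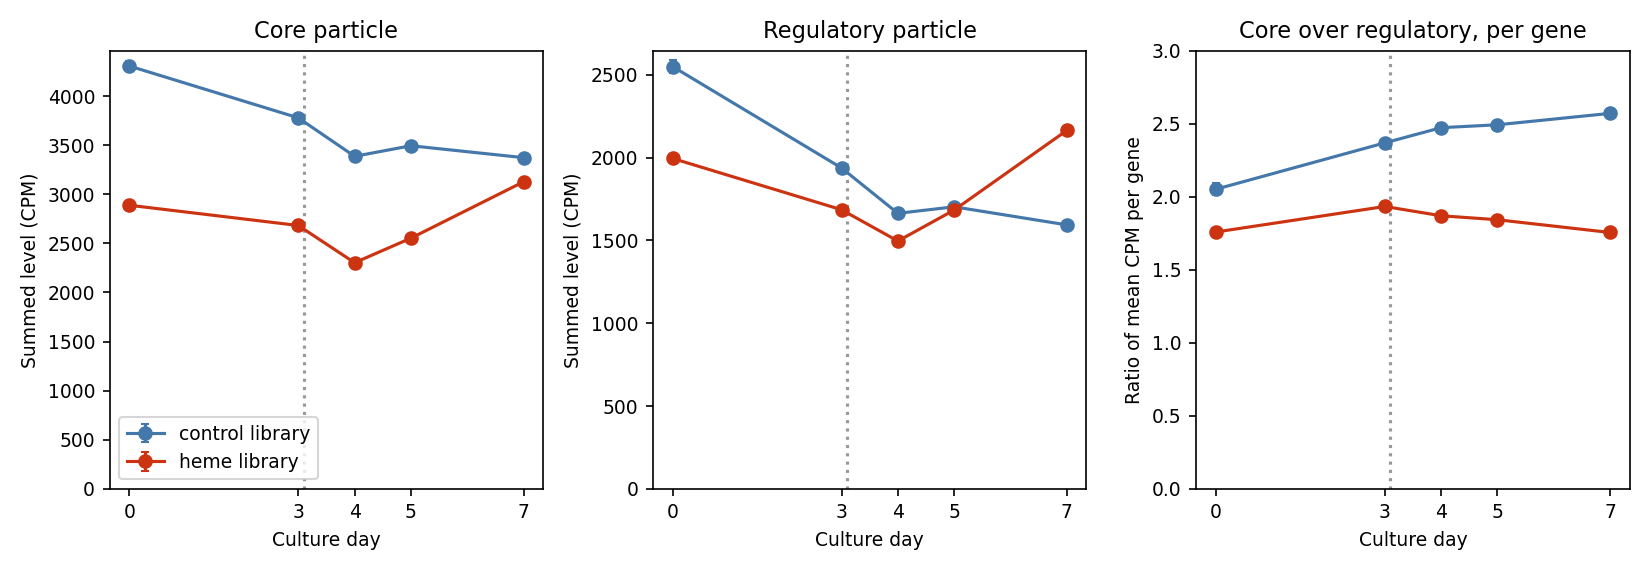
Summed level of the 14 core and the 17 regulatory particle genes (CPM, left and middle) and the ratio of their mean CPM per gene (right) by culture day, for the control and heme libraries. Error bars are 95% counting intervals, mostly smaller than the points, and the dotted line marks the addition on day 3. The regulatory particle of the heme library is below that of the control library on days 0, 3 and 4 and above it on day 7.

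On the log2 scale this divergence was larger for the regulatory particle. The relative log2 ratio of its sum was -0.23 (interval -0.25 to -0.21) among the controls and 0.36 (0.35 to 0.38) with heme. For the core particle the values were -0.11 (-0.12 to -0.10) and 0.22 (0.21 to 0.24). A member is counted as past the fold where its ratio relative to all genes is 1.5 or more, or the inverse. In the control library, 0 of 35 members were higher and 4 lower on day 7 than on day 3, where 19.1% of all genes were higher and 15.2% lower. The 4 were the ATPases Psmc2, Psmc3 and Psmc6, and Psmc3ip. In the heme library, 5 of 34 members were higher and 0 lower, where 17.0% of all genes were higher and 14.0% lower. The 5 were Psma5, an alpha ring subunit, Psmb6, a catalytic subunit, Psmd1 and Psmd11, scaffold subunits of the regulatory particle, and Psmd5, a chaperone of its base. In both libraries the shares of members were below those of all genes.

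Many of the subunits, though not all, varied together. The Pearson correlation over the 10 cultures between the log2 level of a subunit and the sum of the others had a median of 0.81, and it exceeded 0.8 for 16 of 31. These points share libraries and cell mixtures, so the value is a description. The highest level of 24 subunits was in the control culture of day 0, and the lowest of 18 was in the heme culture of day 4. Psmd2, a scaffold subunit of the base, was least like the others, with a correlation of -0.29. Low values were also seen for Psmd1 (-0.05), Psmc1 (0.27), Psmd11 (0.27), Psmd8 (0.36) and Psmb5 (0.39). Values for genes of like level outside the proteasome are not given.

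The second comparison was heme against control on each day. Ratios are relative to the median of all genes, which itself lay between 0.21 and 0.31 (log2) above equal CPM. The sum of the 31 subunits was lower in the heme library already before the addition, with a relative log2 ratio of -0.80 (interval -0.81 to -0.78) on day 0 and -0.64 (-0.65 to -0.63) on day 3. On day 4 it was again -0.64 (-0.65 to -0.63), followed by -0.50 (-0.51 to -0.49) on day 5 and by -0.18 (-0.20 to -0.17) on day 7. The difference was thus present before the addition and was smaller on days 5 and 7. The ribosomal limit on cells had removed 59.1% of the control and 7.62% of the heme singlets of day 0, and the value of that day without this limit is not given. On day 7 the direction depends on the scale, since the sum was 5291 CPM in heme and 4967 CPM in control before the subtraction of the median, a log2 ratio of 0.09.

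The same course was seen over the members. On day 0, 0 members were higher and 27 lower, where 16.2% of all genes were higher and 18.0% lower. On day 3 the members numbered 0 and 19 against 7.70% and 14.0% of all genes. On day 4 they numbered 0 and 17 against 10.4% and 17.9%, and on day 5 they numbered 0 and 11 against 10.8% and 15.8%. Without the upper limit on detected genes, which had removed more heme than control cells, 4 members were lower on day 5 (share of all genes not given). On day 7, 5 members were higher (Psmd1, Psmd2, Psmd3, Psmd5 and Psmd11) and 3 lower (Psma7, Psmb2 and Psmd8), against 15.7% and 19.6% of all genes. Before subtraction of the all-gene median these numbers were 8 and 1 (shares of all genes not given). All 5 members that were higher relative to all genes belong to the regulatory particle or its chaperones. Their longest transcripts had 2894 (Psmd3) to 4397 nt (Psmd5), and length is taken up below.

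**Figure D2:**
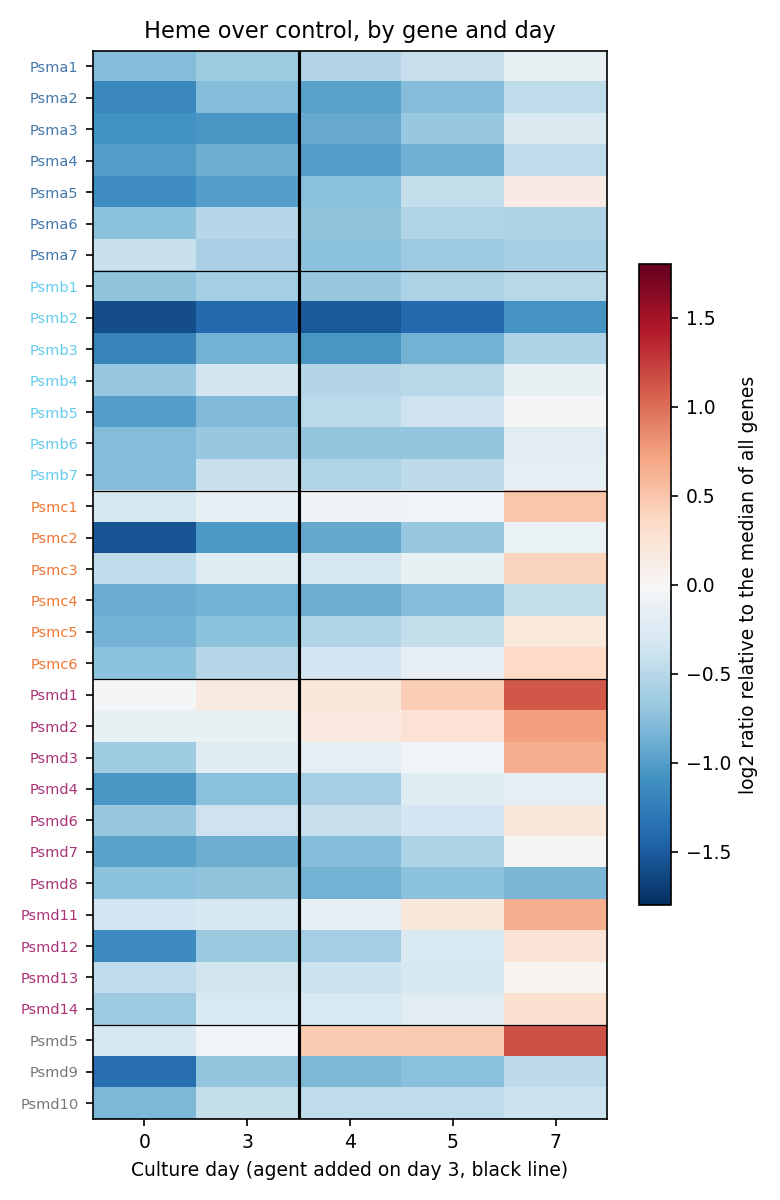
Ratio of heme to control for 34 members (rows, coloured by class: alpha ring, beta ring, ATPase, non-ATPase, assembly chaperone) on each culture day (columns), on a log2 scale relative to the median of all genes. Blue is lower and red higher in the heme library. Most rows are blue on days 0 and 3, before the addition, and most ATPase and non-ATPase rows turn red by day 7.

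Transcript length moved with the ratio between the libraries. Over all genes past the filter, the Spearman correlation of the ratio with the longest annotated transcript was 0.569, 0.631, 0.551, 0.506 and 0.401 on days 0, 3, 4, 5 and 7. On day 3, the median relative log2 ratio was -0.58 for the 928 genes of up to 1488 nt and 0.40 for the 928 genes above 6449 nt. Proteasome transcripts are short. The core particle genes had a median of 1220 nt (859 to 2911) and the regulatory particle genes 1983 nt (1387 to 3466), against 3406 nt for all genes tested on day 3. With ratios taken against genes of like length instead of all genes, the sum of the subunits was at -0.35, -0.24, -0.21, -0.15 and 0.18 on these days. The members past the fold then numbered 9, 4, 5, 5 and 0 lower on the successive days, and 0 higher until day 7, when 12 were higher. The 12 were the core genes Psma5 and Psmb5, and Psmc1, Psmc3, Psmc5, Psmd1, Psmd2, Psmd3, Psmd5, Psmd6, Psmd11 and Psmd14. Of all genes, 6.37% to 11.1% were lower by this measure on days 0 to 5, and 13.9% were higher and 14.5% lower on day 7. This alternative was chosen after the data had been seen. The change over time had little relation to length, with a correlation of 0.049 for day 7 against day 3 among the controls and 0.005 with heme.

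**Figure D3:**
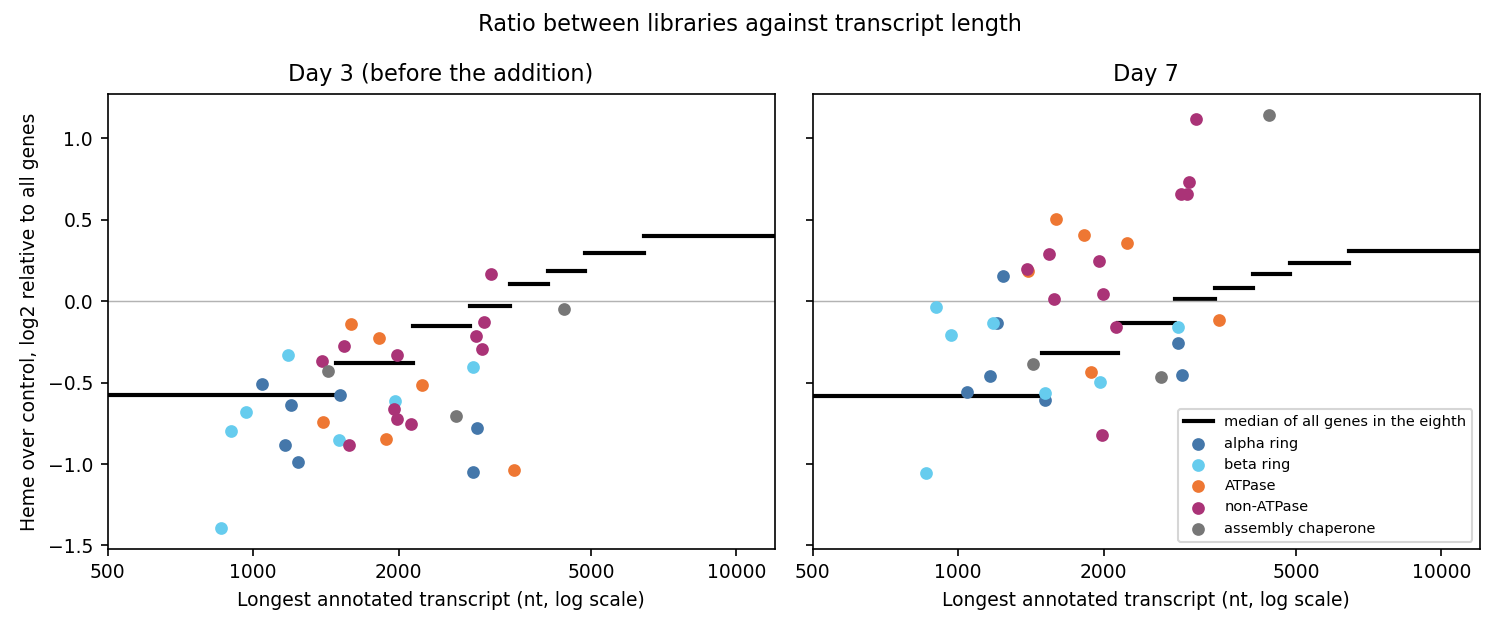
Ratio of heme to control (log2, relative to all genes) against the longest annotated transcript (nt, log scale) on day 3 and day 7. Black bars are medians over all genes in eighths of length, the outer ones drawn to the edge of the axis, and points are members coloured by class. On day 3 the points lie around or below the bars of their length, and on day 7 many ATPase and non-ATPase points lie above them.

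Because the libraries differed before the addition, each ratio was also expressed less the ratio of the same gene on day 3. On this scale the Spearman correlations with length were 0.053, -0.091 and -0.070 on days 4, 5 and 7. The sum of the subunits was at -0.01 (interval -0.02 to 0.01) on day 4, 0.13 (0.12 to 0.15) on day 5 and 0.45 (0.44 to 0.47) on day 7, a fold of 1.37 on day 7. On day 4, 0 members were past the fold in either direction, where 1.73% of all genes were higher and 2.52% lower. On day 5 there were again 0 in either direction, where 3.92% were higher and 5.00% lower. On day 7, 16 of 34 members were higher and 0 lower, where 10.2% of all genes were higher and 9.68% lower. The median over the 34 members was a log2 value of 0.57. Against genes of like length 15 members were higher and 0 lower, where 9.51% of all genes were higher and 10.0% lower.

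By class, 5 of 6 ATPases, 7 of 11 non-ATPase subunits, 2 of 7 alpha ring subunits, 1 of 7 beta ring subunits and 1 of 3 chaperones were past the fold on day 7 less day 3. The summed ATPases were at a fold of 1.65 (1.595 to 1.698) and the summed non-ATPase subunits at 1.49 (1.46 to 1.52). The alpha ring was at 1.28 (1.26 to 1.30) and the beta ring also at 1.28 (1.26 to 1.30). The intervals of the core rings overlapped almost wholly and lay below those of both parts of the regulatory particle. They hold counting error alone, and the genes of a class spread more widely. The log2 values reached from -0.05 to 1.14 in the alpha ring and from -0.10 to 0.95 among the non-ATPase subunits. Medians over genes were 0.42 (alpha ring), 0.29 (beta ring), 0.76 (ATPase) and 0.86 (non-ATPase).

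**Figure D4:**
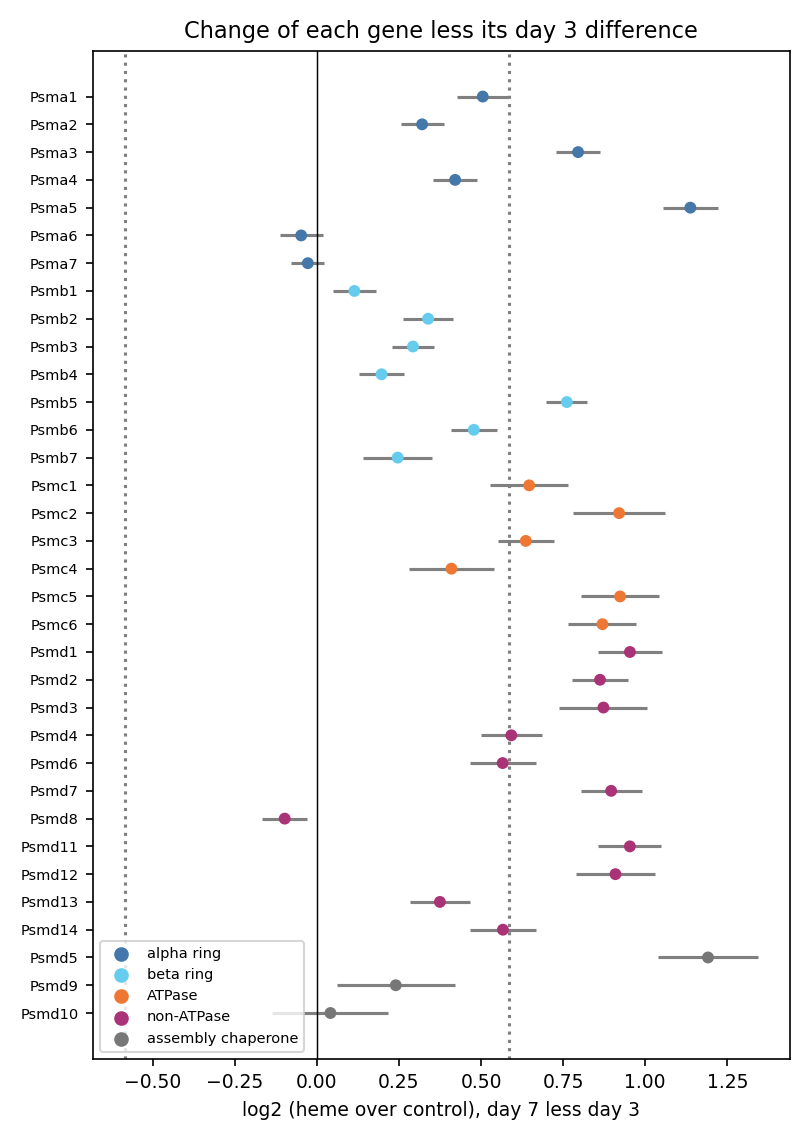
Log2 ratio of heme to control on day 7 less that on day 3 for 34 members past the filter, coloured by class, with 95% counting intervals. Dotted lines mark a fold of 1.5 in either direction. Points reach from -0.10 (Psmd8) to 1.19 (Psmd5), and 31 of 34 are above 0.

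In the alpha ring, which gates the barrel, Psma5 (ENSMUSG00000068749, chr3:108256926-108279974, plus strand) moved most. It was at 231, 170, 140, 147 and 146 CPM in the control library on days 0, 3, 4, 5 and 7 and at 131, 102, 97.3, 126 and 197 CPM in the heme library. It was thus lower in the heme library until day 5 and higher on day 7, and its fold on day 7 less day 3 was 2.20 (2.08 to 2.33). Psma3 was at 378, 317, 258, 274 and 244 CPM in control and 219, 182, 162, 198 and 247 CPM in heme. The libraries had met by day 7, a fold of 1.74 (1.66 to 1.82) less day 3. Psma2 was at 341, 320, 292, 268 and 244 CPM in control and 188, 222, 175, 180 and 215 CPM in heme, lower on every day. Psma7, the member of the ring with the highest levels and with the lowest ratio of heme to control on day 7, was at 584, 429, 393, 444 and 502 CPM in control and 550, 341, 278, 326 and 399.8 CPM in heme. Its fold less day 3 was 0.981 (0.948 to 1.02), so its ratio on day 7 did not differ from that of day 3 beyond counting error.

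In the beta ring, Psmb5 (ENSMUSG00000022193, chr14:54614119-54618022, minus strand), the chymotrypsin-like subunit, stood apart from the other catalytic genes. It was at 301, 345, 313, 298 and 236 CPM in the control library and at 188, 236, 262, 266 and 278 CPM in the heme library. It was therefore lower day by day after day 3 in control and higher in heme, and its fold on day 7 less day 3 was 1.69 (1.62 to 1.77). Psmb6, the caspase-like subunit, was at 254, 215, 222, 248 and 230 CPM in control and 182, 159, 162, 176 and 242 CPM in heme, a fold of 1.39 (1.33 to 1.46) less day 3. Psmb7, the trypsin-like subunit, was at 137, 104, 95.4, 96.4 and 84.9 CPM in control and 98.6, 93.0, 77.1, 80.5 and 92.0 CPM in heme, a fold of 1.19 (1.10 to 1.28). Of the 3 catalytic genes only Psmb5 was past the fold on this scale.

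Psmb2, a structural subunit of the beta ring, gave the lowest ratio of all members. It was at 290, 276, 236, 251 and 249 CPM in control and 119, 125, 96.8, 110 and 145 CPM in heme, with a relative log2 ratio of -1.59 on day 0 and -1.06 on day 7. The levels of the libraries did not overlap. The ratio was -1.39 on day 3 and -1.52 on day 4, and on day 7 its fold less day 3 was 1.26 (1.20 to 1.33). It also has the shortest transcript of the 31 subunits (859 nt), and its ratio on day 7 was -0.40 against genes of like length. Psmb3 was at 398, 326, 305, 304 and 277 CPM in control and 215, 214, 174, 195 and 227 CPM in heme, lower throughout.

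In the ATPase ring, which unfolds substrates, 6 of 6 genes were below the all-gene median on day 7 relative to day 3 among the controls, and 5 of 6 were above it with heme. Psmc1 was at 90.8, 70.1, 64.1, 63.9 and 56.3 CPM in the control library and 90.1, 75.5, 72.1, 71.5 and 96.7 CPM in the heme library, a fold of 1.57 (1.44 to 1.70) on day 7 less day 3. Psmc2 was at 115, 75.8, 63.1, 60.2 and 48.1 CPM in control and 48.4, 43.8, 39.0, 43.4 and 53.7 CPM in heme. The large difference of day 0 was gone by day 7, a fold of 1.89 (1.72 to 2.08) less day 3. Psmc4, the only ATPase not past the fold on this scale, was at 109, 77.2, 64.7, 69.0 and 64.9 CPM in control and 72.3, 51.0, 41.5, 46.6 and 58.1 CPM in heme.

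Among the non-ATPase subunits, the large scaffolds Psmd1 and Psmd2 were the ones whose CPM was higher in the heme library on all 5 days. Relative to the median of all genes, both were below 0 on day 0 (-0.02 and -0.13) and Psmd2 also on day 3 (-0.13). Psmd1 (ENSMUSG00000026229, chr1:86064387-86139151, plus strand) was at 136, 94.3, 84.3, 89.1 and 75.0 CPM in control and 166, 126, 114, 139 and 197 CPM in heme. Its fold on day 7 less day 3 was 1.94 (1.81 to 2.07). Psmd2 was at 134, 130, 118, 127 and 104 CPM in control and 152, 142, 156, 176 and 209 CPM in heme, a fold of 1.82 (1.71 to 1.93). Psmd12, a lid subunit, was at 130, 84.6, 70.0, 67.3 and 59.6 CPM in control and 73.4, 63.4, 53.8, 64.3 and 85.6 CPM in heme. It crossed from lower to higher between days 5 and 7, a fold of 1.88 (1.73 to 2.04). Psmd4, a ubiquitin receptor, was at 223, 137, 113, 117 and 122 CPM in control and 134, 96.5, 88.1, 117 and 132 CPM in heme, a fold of 1.51 (1.41 to 1.61), just inside the limit. Psmd14, the deubiquitinase of the lid, was just outside it at 1.48 (1.38 to 1.59).

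Psmd8 was the exception in the regulatory particle. This lid subunit was at 183, 225, 206, 253 and 318 CPM in the control library and 136, 162, 134, 175 and 218 CPM in the heme library. It was higher on day 7 than on day 3 in both libraries, and its fold less day 3 was 0.935 (0.891 to 0.981). It was the only regulatory subunit of the 17 with a value below 1 on this scale.

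The assembly chaperones did not move as one. Psmd5 (ENSMUSG00000026869, chr2:34849734-34874968, minus strand) was at 60.6, 41.7, 34.2, 32.8 and 29.4 CPM in control and 61.6, 48.0, 55.8, 52.5 and 78.7 CPM in heme, and its fold of 2.28 (2.05 to 2.54) on day 7 less day 3 was the highest of the members. Psmd9 was at 105, 41.5, 34.5, 34.7 and 32.2 CPM in control and 50.9, 30.2, 23.2, 23.7 and 28.2 CPM in heme, lower throughout. Psmd10 was between 25.3 and 38.5 CPM in all 10 cultures, and its fold less day 3 of 1.03 (0.911 to 1.16) did not differ from 1 beyond counting error.

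The third comparison was core against regulatory particle. In the control library the mean level per core gene over that per regulatory gene was 2.05 (2.01 to 2.09), 2.37 (2.35 to 2.39), 2.47 (2.44 to 2.50), 2.49 (2.46 to 2.52) and 2.57 (2.55 to 2.60) on days 0, 3, 4, 5 and 7. In the heme library it was 1.76 (1.73 to 1.79), 1.93 (1.91 to 1.95), 1.87 (1.85 to 1.89), 1.84 (1.82 to 1.87) and 1.76 (1.74 to 1.77). The proportion was thus higher on each later day in control, and lower on each later day after day 3 in heme. The heme value over the control value was 0.857 and 0.816 on days 0 and 3, and on day 7 it was 0.683 (0.673 to 0.693). Taken over the value of day 3, it was 0.926 (0.906 to 0.947) on day 4, 0.906 (0.885 to 0.927) on day 5 and 0.837 (0.819 to 0.854) on day 7. None of these ratios is corrected for transcript length, and core transcripts are the shorter ones. Against genes of like length, the day 0 log2 ratio of heme to control was -0.36 for the core sum and -0.33 for the regulatory sum. The day 3 values were -0.28 (core) and -0.16 (regulatory), and those of day 7 were 0.06 and 0.39. By this measure the particles lay closest on day 0 and furthest apart on day 7.

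The catalytic pairs gave a larger contrast. Psmb5, Psmb6 and Psmb7 together over their inducible counterparts Psmb8, Psmb9 and Psmb10 were at 1.75, 1.75, 1.68, 1.07 and 0.738 among the controls and at 1.19, 2.10, 2.99, 2.14 and 2.96 with heme. The sum of the inducible genes exceeded that of the standard ones only in the control culture of day 7, with an interval of 0.725 to 0.752. Psmb8 alone exceeded Psmb5 also in the control culture of day 5 (0.799, 0.776 to 0.824) and in the heme culture of day 0 (0.879, 0.832 to 0.928). Psmb5 over Psmb8 went from 1.54 on day 3 to 0.499 (0.486 to 0.513) on day 7 in control, and from 1.96 (1.89 to 2.04) to 2.42 (2.32 to 2.53) in heme. Psmb6 over Psmb9 went from 2.55 to 1.32 in control and from 2.47 to 5.51 in heme. Psmb7 over Psmb10 went from 1.47 to 0.854 in control and was 1.95 and 1.92 in heme. In CPM, Psmb8 went from 223 to 473 between days 3 and 7 in control and from 120 to 115 in heme.

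The cell mixture moved with these values. Both libraries were clustered together without the proteasome genes, and clusters were named only where markers of a type were raised. On day 7, macrophage-like clusters held 56.4% of the heme cells and 17.1% of the control cells, dendritic cell-like clusters held 17.8% of the control cells, and neutrophil-like clusters held 27.8% of the heme cells. Cells in unnamed clusters made up 63.2% (control) and 12.5% (heme). Among these, clusters 7 and 10 had 3 macrophage markers raised (C1qa, C1qb and C1qc). The dendritic cell markers raised numbered 3 in cluster 7 and 1 in cluster 10, and Ccl17 was among the leading genes of both. At resolution 0.5 no control cluster was macrophage-like and 79.6% of the control cells of day 7 were unnamed. In the sum of a culture, a change in the mixture and a change within a cell type cannot be told apart. The clusters differed widely in their proteasome level. Over all days, neutrophil-like clusters summed to 2597 to 3793 CPM in the control library and 2564 to 3632 CPM in the heme library. Granulocyte-monocyte progenitor-like clusters summed to 4678 to 8188 CPM and 4563 to 5897 CPM. The macrophage-like cluster 17 of the control library stood at 5045 CPM (4992 to 5098) and the macrophage-like cluster 2 of the heme library, led by Marco, Hmox1 and Spic, at 5647 CPM (5617 to 5678). Dendritic cell-like cells stood at 4427 CPM in control cluster 14 and 4075 CPM in heme cluster 24. Erythroid-like cells were at 7696 and 5874 CPM.

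**Figure D5:**
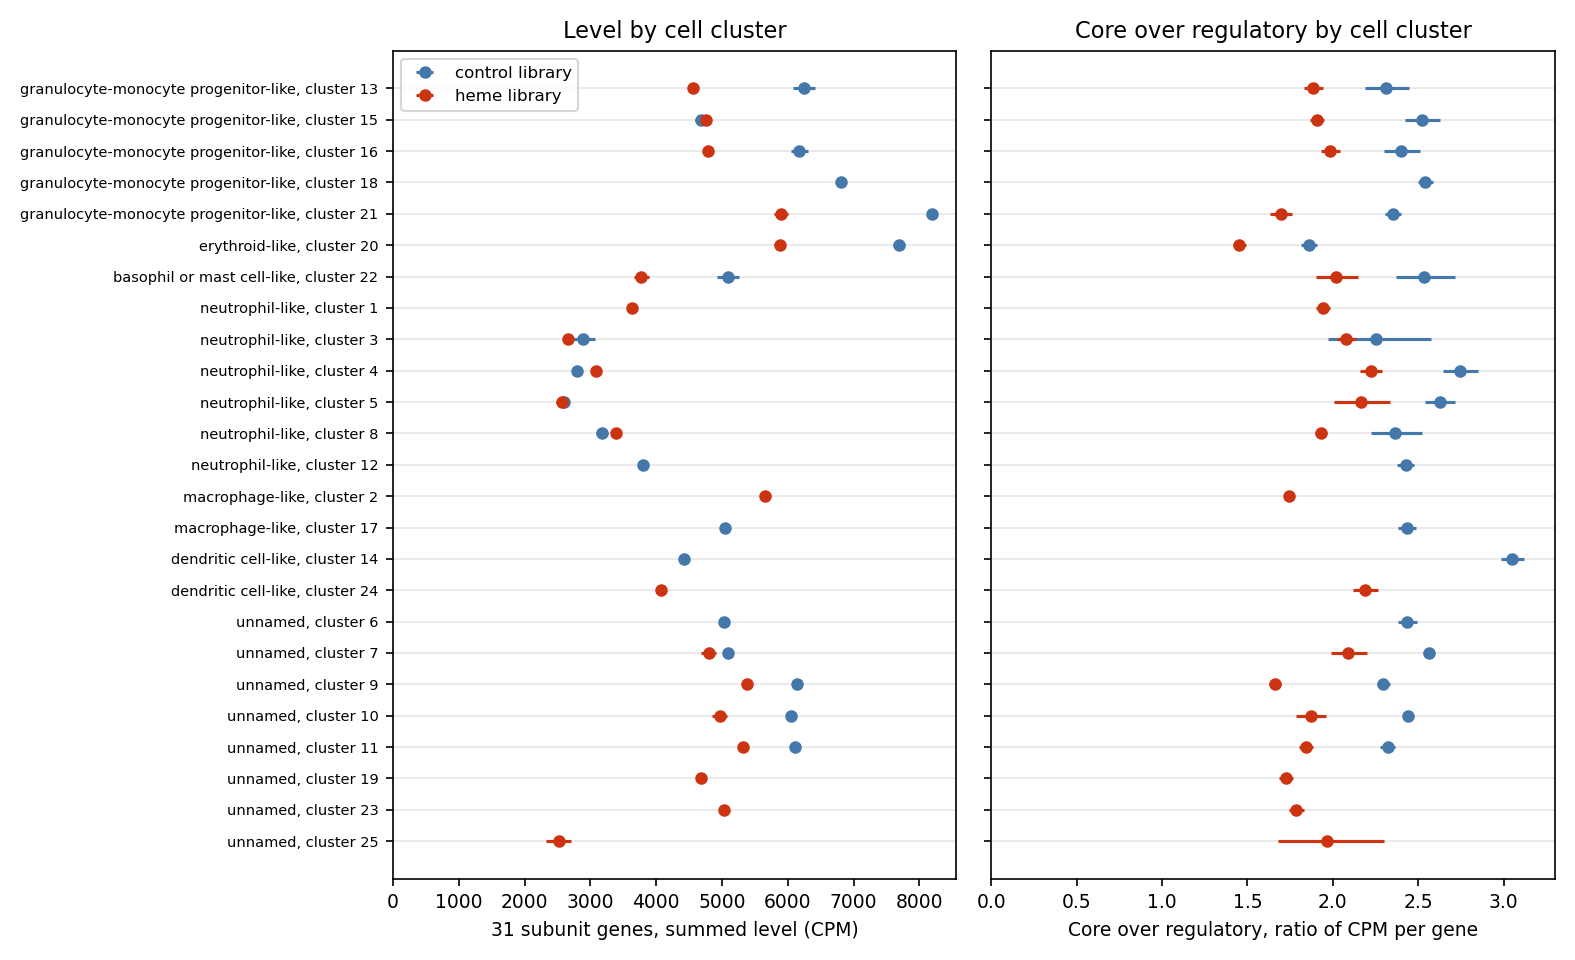
Summed level of the 31 subunits (CPM, left) and core over regulatory ratio (right) in each cell cluster with 50 or more cells in a library, over all days, with 95% counting intervals. Within each library, neutrophil-like clusters have the lowest levels of the named types. In each of the 14 clusters with both libraries, the heme point of the right panel lies to the left of the control point. The values are not corrected for transcript length.

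Within the 14 clusters that held 50 or more cells of both libraries, the core over regulatory ratio was lower in the heme library in 14 of 14, with heme over control between 0.721 (cluster 21, progenitor-like) and 0.923 (cluster 3, neutrophil-like; interval 0.808 to 1.06) and a median of 0.803. The sum of the subunits relative to all genes was also lower in 14 of 14, from -0.82 (cluster 21) to -0.11 (cluster 3) on the log2 scale. Before subtraction of the all-gene median it was higher in the heme library in clusters 4 and 8. In cluster 15 the ratio was 1.02 (0.994 to 1.04), not beyond counting error. These clusters included cells of days 0 and 3, and the baseline difference within clusters was not separated from the later one. The values within clusters were not set against genes of like length, and the part of transcript length in them was not tested. In the erythroid-like cluster 20, most of whose cells came from day 0, core over regulatory was 1.86 in control and 1.45 in heme.

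Over time within a class, the neutrophil-like cells of the control library summed to 3512 (3467 to 3557), 3217 (3184 to 3250) and 3024 (2979 to 3071) CPM on days 3, 4 and 5. Those of the heme library summed to 3176 (3144 to 3208), 3150 (3124 to 3176), 3308 (3270 to 3347) and 3398 (3342 to 3454) CPM on days 3, 4, 5 and 7. On day 5 the heme library was the higher one within this class. The order on day 3 depended on the clustering, since at resolution 0.5 the values of that day were 3149 CPM in control and 3203 CPM in heme. These are CPM without subtraction of an all-gene median. Over all days, clusters 5 and 12 held most of the class in control and clusters 1, 3 and 8 in heme. On day 3, clusters 12 and 4 held 338 and 174 of the 565 control cells. Clusters 8 and 4 held 431 and 347 of the 894 heme cells of that day. On day 5, cluster 1 held 870 of the 1260 heme cells, and it had 48 control cells over all days. The part of these shifts between clusters was not tested. The macrophage-like cells of the heme library were at 5212 (5125 to 5301), 5467 (5384 to 5551) and 5744 (5709 to 5779) CPM on days 4, 5 and 7, against 4992 (4937 to 5047) CPM in control on day 7. These too are CPM without subtraction of a median, which over whole cultures of day 7 lay 0.28 (log2) higher in heme. Whether the order holds relative to all genes was not tested. The libraries contributed different clusters, since cluster 2 held 7 control cells and cluster 17 held 3 heme cells. The standard over inducible ratio was lowest in the dendritic cell-like clusters, at 0.342 (0.330 to 0.355) in control cluster 14 and 0.460 (0.431 to 0.489) in heme cluster 24. It was 1.23 in the macrophage-like cluster 17 of control and 3.25 in the macrophage-like cluster 2 of heme.

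Of the 32 other listed genes of the pathway, 31 were in the matrices and 30 passed the filter on day 7, of which 3 were higher (Psme4, Ddi2 and Mafg) and 11 lower in the heme library, against the 15.7% and 19.6% of all genes given above. The 3 inducible subunits were lower on days 3, 4, 5 and 7, with a median relative log2 ratio of -0.81 on day 3 and -2.27 on day 7. The activator genes Psme1 and Psme2, known to be induced together with them, were at 338 and 398 CPM in control and 140 and 141 CPM in heme on day 7, with folds less day 3 of 0.461 (0.437 to 0.485) and 0.441 (0.419 to 0.465). Psme4, a nuclear activator with a long transcript, was higher in the heme library on every day, before the addition too (77.9 against 42.2 CPM on day 0 and 99.7 against 40.3 CPM on day 7).

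Among genes outside the rule that bind the regulatory particle, the ubiquitin receptor Adrm1 had a level of 76.3 CPM in heme on day 7 against 54.3 CPM on day 3, and a fold less day 3 of 1.74 (1.59 to 1.91). Usp14, a bound deubiquitinase, was at 1.47 (1.38 to 1.57) on this scale. The other listed genes of this group were lower on it, with Sem1 at 0.894 (0.875 to 0.914) and Uchl5 at 1.08 (0.975 to 1.19). Of the 5 assembly factors measured, Psmg1, Psmg3 and Psmg4 were lower in heme on day 7, and all 3 were lower past the fold on day 3 already. Less day 3, their log2 values on day 7 were 0.16 (Psmg1), 0.05 (Psmg3) and -0.45 (Psmg4). Pomp, the maturation factor of the core, had a fold less day 3 of 1.34 (1.29 to 1.39).

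The genes that control transcription of the proteasome did not move as one. Nfe2l1 was at 35.6 and 59.8 CPM on days 3 and 7 in control and 47.3 and 82.0 CPM in heme, a fold less day 3 of 1.01 (0.919 to 1.12). Nfe2l2 was at 127 and 232 CPM in control and 155 and 177 CPM in heme, a fold of 0.616 (0.583 to 0.651). Mafg, a partner of both, was at 80.2 and 56.5 CPM in control and 106 and 126 CPM in heme, a fold of 1.66 (1.54 to 1.79). Ddi2, the protease that activates Nfe2l1, was higher in heme on day 7 at 81.2 CPM against 40.1 CPM, as it was on day 3 (57.4 against 32.4 CPM). These are RNA levels, which do not measure the activity of the factors. Of the ubiquitin genes, Ubb was at 1151 CPM in control and 632 CPM in heme on day 7, and at 1237 and 582 CPM on day 3, so this difference was present before the addition. Rps27a was lower in heme on day 7 as on day 3.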

How the data were processed

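Single-cell libraries (10x 3′ v3.1 chemistry) of GM-CSF bone marrow cultures were analysed, 1 per group, each a pool of 5 hashtagged culture days. The authors ran Cell Ranger and deposited its UMI counts without normalization. The submitters' processing notes list Cell Ranger 4.0.0, Seurat 3.2.3, Scanpy 1.6.0 and the build GRCm38.p6, whereas the matrix headers name version 5.0.0. The annotation used for counting is not given in the sources used here, nor is the treatment of reads from processed pseudogenes, of which several subunit genes have copies. The hashtag calls deposited by the authors (HTODemux, positive quantile 0.99) were used as they stand.

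Barcodes with 1 hashtag were kept at 500 to 5000 detected genes, under 15% mitochondrial and under 30% ribosomal protein UMIs, after the limits of the study. The upper gene limit removed 16.4% to 33.9% of the heme cells and 1.34% to 8.34% of the control cells per culture, and on day 0 the ribosomal limit removed 59.1% (control) and 7.62% (heme). No doublet caller was run, so doublets were handled by hashtag alone. UMIs were summed per culture and scaled to CPM, and ratios are given relative to the median log2 ratio of all genes at a mean of 10 CPM or more. Intervals for ratios of 2 counts are exact (Poisson), and those for values less day 3 or for ratios of ratios are normal on the log scale. A fold of 1.5 was used for counts. The counting of genes past the fold was tested on simulated data. PCR and sampling of cells add error that the intervals do not cover.

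Transcript lengths and positions are from GENCODE M21 (GRCm38), and promoter stretches from RefSeq. Cells were clustered with scanpy 1.11.5 and igraph 0.11.9 (2000 variable genes without the members, listed pathway genes, mitochondrial and ribosomal protein genes, 15 principal components, 15 neighbours, Leiden resolution 1). A cluster of 50 or more cells was named from 3 or more raised markers of a type (log2 ratio of 1 or more, detection in 10% of cells) and 2 times as many as for the next type, unless another type had more markers among the 10 leading genes (cluster 10) or the median UMI count was under 1/3 of that of all cells with no marker of the type among them (cluster 25). TMM factors were from edgeR 4.0.16.

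Genes named were the 3 catalytic subunits, the highest and lowest member of each class on day 7, the member least like the sum, up to 12 members with the largest ratios past the fold, Psmc3ip, Psma8 and Psmb11, and the other pathway genes past the fold on day 7. Psmd14, Adrm1, Usp14, Sem1, Uchl5, Pomp and Nfe2l1 were named after their values had been seen. The members and lists were chosen with earlier results of these data known.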

Additional observations from a re-analysis of the deposited data

Results flagged for a closer look

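The change from day 3 to day 7, relative to all genes, had opposite signs in the libraries for the summed subunits (-0.15 in control and 0.28 in heme on the log2 scale), for the core particle (-0.11 and 0.22) and for the regulatory particle (-0.23 and 0.36). Each group was 1 library, so the difference between the groups was not tested.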

How the results depend on the processing

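The ratio of the summed subunits between the libraries depended on the scale. On day 4 the value of -0.64 became -0.41 without subtraction of the all-gene median, -0.62 with TMM factors, -0.66 with median-of-ratios factors, -0.54 for all singlets or without the upper gene limit, -0.63 without the cells with most UMIs, -0.56 with equal weight of cells, -0.59 as the median of the subunits, -0.01 less day 3 and -0.21 against genes of like length, an alternative chosen after the data had been seen. On day 5 the value of -0.50 became, in this order, -0.29, -0.53, -0.54, -0.31 (all singlets), -0.30 (without the upper gene limit), -0.51 (without the cells with most UMIs), -0.42 (equal weight), -0.44 (median), 0.13 and -0.15. On day 7 the value of -0.18 became 0.09, -0.14, -0.17, -0.12, -0.12, -0.21, -0.25, -0.12, 0.45 and 0.18, in the order of day 4.

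Counts of members past the fold moved as follows. Without the subtraction of the median, 1, 2 and 8 were higher and 8, 3 and 1 lower on days 4, 5 and 7. Less day 3, 16 were higher on day 7 and 0 lower on any of these days. Against genes of like length, 5 were lower on days 4 and 5, and 12 were higher and 0 lower on day 7. At a lower fold threshold, 1, 2 and 8 were higher and 26, 22 and 11 lower, and at a fold of 2, 3, 1 and 1 were lower and 2 were higher on day 7. On day 5, all singlets or no upper gene limit gave 1 higher and 4 lower, and equal weight of cells gave 7 lower. Core over regulatory on day 7 was 0.837 over day 3 and 0.799 against genes of like length. The cause of these shifts was not tested.

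Among the genes chosen by the naming rule, values past the fold changed sign less day 3 for Psma5 (0.23, day 4), Psma3 (0.14 and 0.37, days 4 and 5), Psmb2 (0.34, day 7), Psmb3 (0.01, day 5), Psmc2 (0.11 and 0.36, days 4 and 5), Psmc4 (0.07, day 5), Psmd4 (0.16, day 4), Psmd12 (0.05, day 4), Psmg1 (0.16, day 7), Psmg3 (0.07 and 0.05, days 5 and 7) and Ubb (0.22 and 0.20, days 5 and 7), and against genes of like length for Psme2 (0.01, day 0). Other members and pathway genes also changed sign less day 3, such as Psma4 (0.02, day 5), Psmd7 (0.10, day 4) and Psmg2 (0.05, day 5). The value of 16 members higher on day 7 less day 3 ranged from 13 to 18 over the alternatives (most shares of all genes are not given). Within clusters, the median core ratio was 0.799 at resolution 0.5 and 0.804 with 30 principal components, against 0.803. No paired analysis was possible because each group was 1 library and the labels carry no replicate numbers.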
